A study of Mus musculus with 16 samples.

Results

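Hepatic gene expression after a fast was compared between mice with and without Cpt1a in the liver. The comparison rests on 8 of the 16 libraries of the series and covers every gene that could be tested. All mice were male and had been on a high-fat diet over 12 weeks, and those compared here were fasted for 16 h. S40 to S43, as the deposited columns name them, are the fasted controls (genotype given as Control, called WT in the design text), and S44 to S47 are the fasted Cpt1a liver knockouts (LKO). The other 8 libraries, 4 control and 4 LKO, come from livers collected when such a fast had been followed by refeeding for 6 h. They enter the fit for its estimate of spread and for 1 test of a difference at the end. Strain, age, the allele and the means by which Cpt1a was removed from the liver are not given in the sources used here. The labels do not say that each library is a separate animal, so p-values measure the spread between these libraries, which may in part be technical.

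Carnitine palmitoyltransferase 1A, the product of Cpt1a, sits in the outer mitochondrial membrane and couples long-chain fatty acids to carnitine, the step that commits them to mitochondrial oxidation. In a fasted liver these acids arrive from adipose tissue, feed beta-oxidation and ketone body synthesis, and bind the nuclear receptor PPARA. PPARA drives genes of fat oxidation, peroxisomes and lipid droplets, while insulin-dependent factors such as SREBP1c drive fat synthesis in the fed state.

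The targeted gene was examined first. Cpt1a (chr19:3372334-3435733 in the coordinates of the deposited tables, mm39 per the submitters' processing notes) held 466, 556, 547 and 378 CPM (counts scaled to a common library total) in S40 to S43, and 94.8, 86.1, 126 and 95.6 CPM in S44 to S47. The groups did not overlap, and the LKO mean was 20.7% of the control mean (exact permutation test of log2 CPM, two-sided, p = 0.0286, the smallest that 4 against 4 libraries allow). In edgeR's quasi-likelihood model, the source of every adjusted p below (Benjamini-Hochberg), the log2 fold change of LKO over control was −2.28 (SE 0.23, edgeR adjusted p = 1.4e-04). Counts covered the whole gene, and which exons were deleted is not given in the sources used here.

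Fasted libraries held 15636010 to 20716527 counts. All 10 hepatocyte markers were detected and summed to 60215 to 80016 CPM over the 8 libraries, which bears on the label of liver. A gene was called at an adjusted p under 0.05. The test covered 14488 genes and called 1772 (12.2%). LKO was higher in 833 (5.75%) and lower in 939 (6.48%), of which 195 and 209 differed by at least 2-fold. Leaving out S44 lowered the number called to 1048. The 4 LKO libraries were less alike than the 4 controls: log2 CPM correlated across genes, which are not independent, at 0.968 to 0.980 within LKO and 0.981 to 0.986 within control. On the first principal component of the 8 libraries (36.1% of the variance) the controls lay between −33.0 and −23.2, while S45 (9.20) and S47 (18.9) lay nearer to them than S46 (36.8) and S44 (44.6). Among the 833 genes called higher, S44 and S46 were the 2 highest LKO libraries for 443 (53.2%), and among the 939 called lower they were the 2 lowest for 433 (46.1%). The labels name no batch, so no within-batch value could be given.

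**Figure D1:**
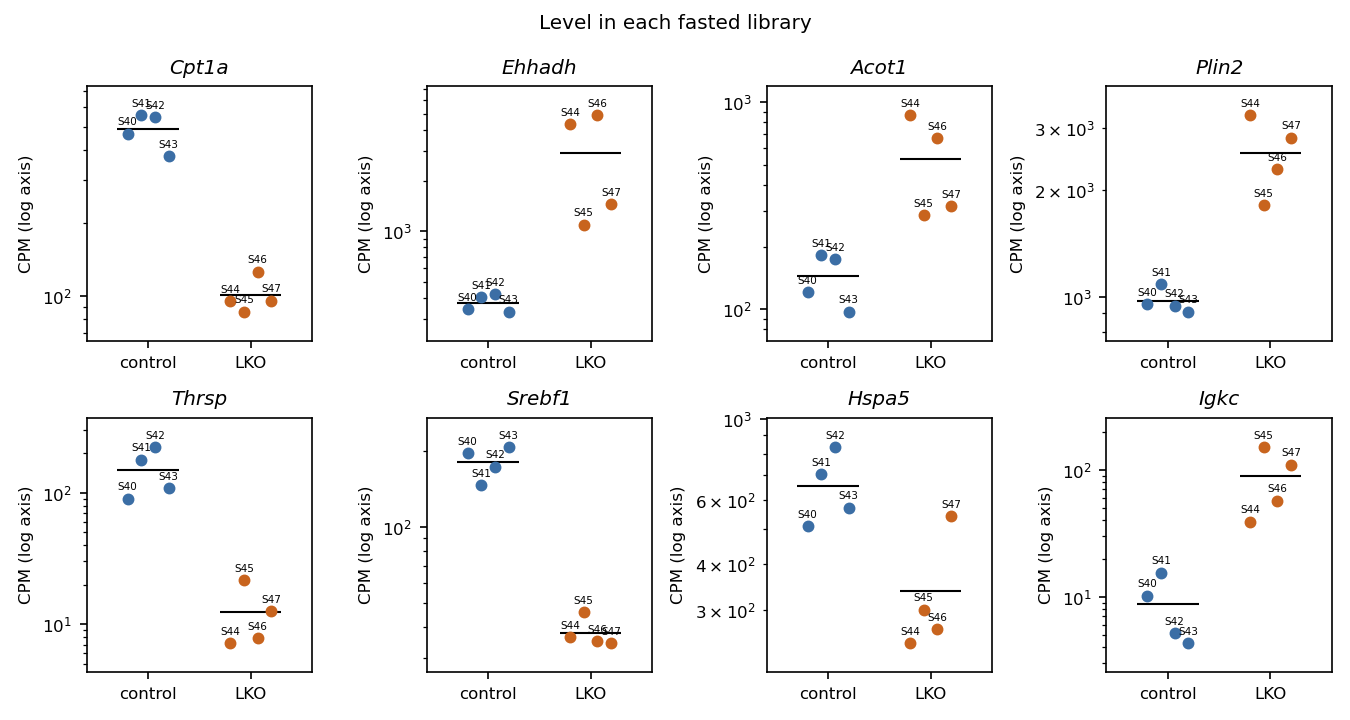
Level of 8 genes in each fasted library, in CPM on a log axis, with 1 point per library and a bar at the group mean. Controls S40 to S43 are blue and LKO libraries S44 to S47 orange. For Ehhadh, Acot1 and Thrsp, S44 and S46 lie farther from the controls than S45 and S47, whereas Cpt1a and Srebf1 are alike in the 4 LKO libraries, and Hspa5 in S47 lies within the control range.

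The named genes follow a rule: 15 rises and 15 falls, the largest among called genes that code for proteins, average 5 CPM or more and do not overlap between the groups, passing over predicted genes. (In all, 2445 genes, 16.9% of those tested, did not overlap.) Several of the 15 rises belong to fat handling. Ehhadh (chr16:21580037-21606557), the bifunctional enzyme of peroxisomal beta-oxidation, stood at 342, 404, 422 and 333 CPM in S40 to S43 and 4327, 1092, 4890.3 and 1445 CPM in S44 to S47 (log2 fold change 2.97, SE 0.41, edgeR adjusted p = 3.9e-04). The lowest LKO library, S45, was above every control, and S44 and S46 held several times as much as S45. Acot1 and Acot2, a cytosolic and a mitochondrial acyl-CoA thioesterase that free fatty acids from coenzyme A, rose by 1.89 and 2.19 (edgeR adjusted p = 0.00180 and 6.4e-04). Acot1 held 121, 183, 175 and 97.7 CPM in S40 to S43 and 865, 284, 672 and 316 CPM in S44 to S47. Cidec, a lipid droplet protein that promotes droplet fusion, held 81.7, 36.8, 63.3 and 53.7 CPM in S40 to S43 and 353, 151, 354 and 221 CPM in S44 to S47 and rose by 2.20 (SE 0.50, edgeR adjusted p = 0.00984). Apoa4, an apolipoprotein of triglyceride-rich particles, held 894, 853, 827 and 1006 CPM in S40 to S43 and 4926, 1901, 4247 and 2902 CPM in S44 to S47 and rose by 1.96 (edgeR adjusted p = 0.00272). Slc25a30, a mitochondrial carrier, rose by 1.88 (edgeR adjusted p = 0.01002).

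Other large rises lay outside lipid metabolism. Jchain, the joining chain of secreted IgA and IgM, had the largest fold change of the 15 rises (log2 fold change 3.35, SE 0.45, edgeR adjusted p = 3.3e-04) at low levels, 1.79, 3.15, 1.26 and 0.927 CPM in S40 to S43 and 7.89, 27.4, 14.3 and 23.99 CPM in S44 to S47. Here S45 and S47 were the highest LKO libraries, not S44 and S46. Cgref1, a calcium-binding growth regulator, rose by 3.29, and its LKO values of 62.8, 11.7, 55.4 and 16.2 CPM again split into S44 and S46 above S45 and S47. Agap2 (2.90), a GTPase-activating protein, and Cntnap1 (2.73), an adhesion protein best known from myelinated axons, showed the same split, with LKO values of 45.2, 12.6, 56.2 and 12.2 CPM and 92.4, 34.96, 99.6 and 37.98 CPM. Tubb2a, a beta-tubulin, went from 30.2, 25.8, 20.7 and 35.1 CPM to 245, 86.6, 117 and 290.3 CPM (log2 fold change 2.72, SE 0.35, edgeR adjusted p = 2.8e-04), highest in S47 and S44. Lamb3, a laminin chain, held 25.2, 26.96, 28.5 and 27.6 CPM in S40 to S43 and 150.3, 89.3, 128 and 101 CPM in S44 to S47 (log2 fold change 2.11, SE 0.22, edgeR adjusted p = 1.4e-04), with controls almost level. The remaining rises were Slc35f2 (2.21), Sel1l3 (1.94) and Fam83a (2.16). In control S40 Fam83a stood at 7.15 CPM against at most 1.39 CPM in the other controls, and it lost its call without S41, S42, S43 or S47.

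Regulators of insulin-driven fat synthesis were among the falls. Thrsp, which promotes hepatic fatty acid synthesis, held 90.3, 179, 224 and 109 CPM in S40 to S43 and 7.19, 21.7, 7.79 and 12.6 CPM in S44 to S47 (log2 fold change −3.61, SE 0.55, edgeR adjusted p = 7.5e-04). S44 and S46 were lowest, and the highest LKO library, S45, lay below every control. Srebf1, whose product SREBP1c activates lipogenic genes, held 197, 146, 174 and 208 CPM in S40 to S43 and 36.4, 45.9, 35.1 and 34.6 CPM in S44 to S47 (log2 fold change −2.25, SE 0.28, edgeR adjusted p = 2.4e-04), with little spread in either group. Other falls included Cyp2a5, a cytochrome P450 (from 1229.6, 1125, 916 and 766 CPM to 163, 321, 120.2 and 235 CPM, −2.27), Gstt3, a glutathione transferase (−2.14), Car3, a carbonic anhydrase (−2.16), and Chac1, which breaks down glutathione (−2.14). Gstt3 and Car3 were lowest in S44 and S46, at 6.59 and 7.90 CPM for Gstt3 against 30.2 and 32.5 CPM in S45 and S47. Car3 was not called in a fit of the 8 fasted libraries alone. Further falls, beside Cpt1a and Cfd, were those of Adam11 of the ADAM family (−2.81), the desmosomal cadherin Dsg1c (−2.41), the kinase Aatk (−2.27), the cation channel Hcn3 (−2.11), Spry4, an inhibitor of growth factor signalling (−2.05), and mt-Nd4l, a complex I subunit of the mitochondrial genome (−2.22). Cfd, the complement protease adipsin, which is also an adipocyte marker, held 49.3, 9.75, 20.3 and 58.1 CPM in S40 to S43 and 0.749, 2.38, 0.336 and 9.51 CPM in S44 to S47 and fell by 3.45 (edgeR adjusted p = 0.0182), a call lost without S44 or S46.

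Genes of the carnitine shuttle, in which CPT1A is the first enzyme, come first. Their counts, like those of every list below, are to be read beside the 5.75% of all genes called higher and the 6.48% called lower. The lists were chosen with earlier results of these data known, so their shares describe the data and test nothing. Of 7 genes tested, 5 were called higher and 1, Cpt1a, lower (median log2 fold change 0.51, against 0.02 over all genes tested). Slc22a5, the plasma membrane carnitine transporter, held 32.6, 45.5, 48.5 and 33.2 CPM in S40 to S43 and 131, 62.9, 115 and 81.7 CPM in S44 to S47 (log2 fold change 1.29, SE 0.26, edgeR adjusted p = 0.00440). Crat, carnitine acetyltransferase, held 129, 173, 174 and 140.0 CPM in S40 to S43 and 371, 282, 321 and 302 CPM in S44 to S47 (log2 fold change 1.05, SE 0.12, edgeR adjusted p = 2.3e-04). For both genes every LKO library was above every control. Crot, which loads carnitine with medium-chain products of peroxisomal oxidation, rose by 0.91 (edgeR adjusted p = 0.00403), Slc25a20, the carnitine-acylcarnitine exchanger of the inner membrane, by 0.51 (edgeR adjusted p = 0.00247) and Cpt2, which returns acyl groups to coenzyme A inside mitochondria, by 0.36 (edgeR adjusted p = 0.0132), the last not called in the 8 fasted libraries alone. Cpt1c, a relative of Cpt1a from neurons, stood at a log2 fold change of −0.24 and was not called, and the muscle form Cpt1b was too low to be tested.

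Enzymes of the mitochondrial beta-oxidation spiral were called higher in 9 of 18 genes and lower in none (median 0.30). Hadha and Hadhb, the 2 chains of the trifunctional protein for long-chain substrates, rose by 0.63 and 0.99 (edgeR adjusted p = 0.00387 and 3.0e-04). Hadhb held 218, 263, 242 and 214 CPM in S40 to S43 and 522, 389, 568 and 383 CPM in S44 to S47, without overlap, and was highest in S46 and S44. The dehydrogenases Acadm and Acadl, which open each cycle for medium and long chains, rose by 0.75 and 0.60, and Acad11 by 0.70 (edgeR adjusted p = 4.8e-04, 0.00172 and 0.00330). Etfdh, which passes their electrons to the respiratory chain, rose by 0.62, and Decr1, needed for unsaturated chains, by 0.61 (edgeR adjusted p = 0.00159 and 0.00134). LKO levels of these 7 genes were 1.51 to 1.99 times the control level, smaller rises than those of Ehhadh, Acot1 or Acot2. Short-chain members stood lower without a call: Acads at −0.11 and Echs1 at −0.23.

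Of 8 genes of ketone body synthesis and export, 4 were called higher and 1 lower (median 0.24). Slc16a1, the monocarboxylate transporter MCT1 that carries ketone bodies and lactate, held 21.8, 27.3, 26.98 and 35.9 CPM in S40 to S43 and 95.9, 49.4, 73.3 and 95.5 CPM in S44 to S47 (log2 fold change 1.49, SE 0.18, edgeR adjusted p = 2.4e-04). Bdh1, which converts acetoacetate to 3-hydroxybutyrate, held 409.8, 499, 398 and 405 CPM in S40 to S43 and 711, 583, 746 and 609 CPM in S44 to S47 (log2 fold change 0.63, SE 0.12, edgeR adjusted p = 0.00329). For neither gene did a control reach the LKO range. Without S40 the number called higher was 2. Slc16a11, a further monocarboxylate transporter, fell to 12.8, 16.2, 16.4 and 19.8 CPM from 27.1, 43.9, 36.1 and 45.9 CPM (log2 fold change −1.23, SE 0.19, edgeR adjusted p = 8.0e-04).

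Routes of fatty acid oxidation that do not need CPT1A were followed next. Peroxisomes shorten very long chains, and CYP4 enzymes of the endoplasmic reticulum (ER) hydroxylate the far end of the chain. Of 20 genes of peroxisomal oxidation, 6 were called higher and 1 lower (median 0.28). The fatty acid importer Abcd3 (0.58), the D-bifunctional protein Hsd17b4 (0.51) and the reductase Decr2 (0.59) rose (edgeR adjusted p = 0.00861, 0.00317 and 0.00210). Hsd17b4 held 529, 618, 595 and 551 CPM in S40 to S43 and 818, 749, 939 and 761 CPM in S44 to S47, so that the lowest LKO library lay above the highest control. Pecr, a peroxisomal enoyl-CoA reductase of chain elongation, fell from 272, 284, 294 and 282 CPM to 103, 222, 138 and 174 CPM (log2 fold change −0.83, SE 0.20, edgeR adjusted p = 0.0127). Of 16 genes of peroxisome assembly, 3 were called higher (5 without S51) and 1 lower (none without any 1 of 8 libraries; median 0.09). Pex11a, a division factor, had the largest rise of these, from 195, 273, 253 and 198 to 529, 454, 441 and 455 CPM (log2 fold change 1.03, SE 0.21, edgeR adjusted p = 0.00535), and Pex19, a receptor for membrane proteins, rose by 0.39 (edgeR adjusted p = 0.0131).

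Among 15 CYP4 genes, 6 were called higher and 2 lower (median 0.59). Cyp4a14 held 910.1, 1832, 1789 and 1069 CPM in S40 to S43 and 5793, 3531, 7229 and 3380.3 CPM in S44 to S47 (log2 fold change 1.83, SE 0.31, edgeR adjusted p = 0.00148). Cyp4a10 held 942, 1386, 1687 and 858 CPM in S40 to S43 and 2875, 2512, 3823 and 2429 CPM in S44 to S47 (log2 fold change 1.26, SE 0.21, edgeR adjusted p = 0.00151). S46 and S44 were the highest libraries for both, and no LKO library overlapped the controls. Cyp4a31 and Cyp4a32 rose by 1.84 and 0.98 (edgeR adjusted p = 0.00402 and 0.00288). The other rises, Cyp4b1 (0.59) and Cyp4f17 (0.61), were nearer the threshold (edgeR adjusted p = 0.0232 and 0.0432) and were lost without S41, S42 or S44, Cyp4f17 also without S40, S43, S47, S53 or S54. Nor was Cyp4f17 called by limma-voom or in the 8 fasted libraries alone. The 2 called lower were of the Cyp4f subfamily: Cyp4f14 (−1.28) and Cyp4f15 (−0.57, edgeR adjusted p = 0.00116 and 0.00788). Of 13 acyl-CoA thioesterases, 7 were called higher (4 without S40) and 1 lower (median 0.40). Beside Acot1 and Acot2, the peroxisomal forms Acot4 and Acot8 rose by 0.93 and 0.51 (edgeR adjusted p = 0.00305 and 0.00591). Acot11, a thioesterase of long-chain acyl-CoA, fell from 8.54, 9.22, 19.3 and 14.2 CPM to 2.65, 4.92, 2.86 and 3.92 CPM (log2 fold change −1.84, SE 0.28, edgeR adjusted p = 8.3e-04). Acot1 to Acot4 lie together on chromosome 12 and, like the Cyp4a genes on chromosome 4, resemble each other closely, so counts within each cluster are uncertain.

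Genes that bring fatty acids into the hepatocyte and store them were also mostly higher. Of 19 genes of uptake, binding and activation, 7 were called higher (4 without S43) and 2 lower (median 0.44). Acsl5 and Acsl1, which activate long-chain acids to acyl-CoA, rose by 0.83 and 0.73 (edgeR adjusted p = 2.4e-04 and 0.0126). Fabp2, a fatty acid binding protein, was tight at 169, 172, 170.2 and 167 CPM in S40 to S43 and 318, 265, 306 and 242 CPM in S44 to S47 (log2 fold change 0.74, SE 0.10, edgeR adjusted p = 3.0e-04), and Dbi, the acyl-CoA binding protein, rose by 0.49 (edgeR adjusted p = 0.00470). Of 14 genes of coenzyme A supply and breakdown, 2 were called higher and 1 lower (median 0.08).

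Of 19 lipid droplet genes, 8 were called higher and 1 lower (median 0.50). Plin2, the main droplet coat protein of liver, held 958, 1088, 946 and 911 CPM in S40 to S43 and 3250.1, 1816, 2296 and 2812 CPM in S44 to S47 (log2 fold change 1.38, SE 0.25, edgeR adjusted p = 0.00224). Every LKO library was above every control, with S44 and S47 highest. Hsd17b11 and Hsd17b13, droplet-bound dehydrogenases, rose by 1.23 and 0.58, and Mgll, which cleaves monoglycerides, by 0.72 (edgeR adjusted p = 0.00154, 0.0139 and 0.00583). Pnpla2, the main triglyceride lipase, stood at 0.55 and did not pass (edgeR adjusted p = 0.0845) except without S45. Fitm1, a droplet budding factor, fell from 108, 127, 126 and 119 CPM to 46.4, 68.9, 73.4 and 59.4 CPM (log2 fold change −0.95, SE 0.19, edgeR adjusted p = 0.00403). Lipa, the lysosomal acid lipase that degrades droplets delivered to lysosomes, held 143, 168, 153 and 155 CPM in S40 to S43 and 351, 221, 348 and 283 CPM in S44 to S47 (log2 fold change 0.96, SE 0.12, edgeR adjusted p = 2.4e-04). It belongs to a list of 24 autophagy and lysosome genes in which 2 were called higher and 1 lower (4 lower without S47; median −0.01).

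Triglyceride synthesis held fewer calls: 1 of 14 genes was called higher and 2 lower (median −0.13, 0.02 without S43 or S46). This median was also −0.01 without S41 and −0.03 without a filter on low counts. It was −0.02 with a mean of at least 5 CPM or without S48, S49, S50, S51, S52, S53 or S55. Dgat2, which adds the last acyl chain, held 862, 899, 834 and 819.9 CPM in S40 to S43 and 444, 623, 498 and 448 CPM in S44 to S47 (log2 fold change −0.76, SE 0.11, edgeR adjusted p = 6.6e-04), without overlap. Gpat3, which adds the first, rose from 10.97, 10.3, 11.8 and 16.7 to 26.2, 23.3, 17.8 and 24.3 CPM (log2 fold change 0.88, SE 0.20, edgeR adjusted p = 0.0103). Lpin1, a phosphatidate phosphatase, varied from 11.2 to 83.5 CPM among controls and was not called (−1.23, edgeR adjusted p = 0.195). Gk, glycerol kinase, which feeds glycerol into this route and into glucose, held 72.2, 104, 101 and 82.7 CPM in S40 to S43 and 278, 194, 280.4 and 179 CPM in S44 to S47 (log2 fold change 1.37, SE 0.16, edgeR adjusted p = 2.4e-04).

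Genes of de novo lipogenesis were lower. Of 16 tested, 7 were called lower and none higher (median −0.76), beside 6.48% called lower over all genes. The summed level of the list was 4601, 5178, 6355 and 3349.7 CPM in S40 to S43 and 1092, 2875, 1883 and 2012 CPM in S44 to S47, lowest in S44, and the groups did not overlap. The calls fell mostly on regulators and on the use of glucose: beside Thrsp and Srebf1, Pklr, liver pyruvate kinase, held 155, 159, 137 and 181 CPM in S40 to S43 and 47.7, 73.4, 47.5 and 66.9 CPM in S44 to S47 (log2 fold change −1.43, SE 0.19, edgeR adjusted p = 3.4e-04). Mlxipl, which encodes the carbohydrate-responsive factor ChREBP, held 248, 266, 241 and 259 CPM in S40 to S43 and 176, 180.5, 181 and 155 CPM in S44 to S47 (log2 fold change −0.55, SE 0.08, edgeR adjusted p = 7.7e-04). Neither gene overlapped between groups. Mid1ip1, a partner of Thrsp, fell by 1.26 (edgeR adjusted p = 0.0162) but was not called without S46. Aacs, which activates acetoacetate for lipid synthesis, fell by 1.73 (edgeR adjusted p = 0.02999), a call lost by limma-voom and without S40, S42, S44, S46 or S47. The enzymes of the chain itself did not pass with all libraries in the fit: Fasn (−0.88, edgeR adjusted p = 0.149), Acaca (−0.35, 0.228), Acly (−0.34, 0.452) and Scd1 (−1.54, 0.176). Scd1, the desaturase that makes oleate, held 3029, 3184, 4531 and 1842 CPM in S40 to S43 and 219.8, 1909.6, 1049 and 1159 CPM in S44 to S47, so that S44 was far below the rest and S45 overlapped the controls. In the fit of the 8 fasted libraries alone Fasn, Acaca and Acly were called, and Fasn also without S49. Acacb, whose product malonyl-CoA inhibits CPT1, stood at 0.95 (edgeR adjusted p = 0.0680), with S44 and S46 at 72.1 and 65.5 CPM and the other 6 libraries between 20.9 and 33.8 CPM. It was called without S45 or S47.

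Elongases and desaturases, several of which act on polyunsaturated chains, included 3 of 12 genes called higher and none lower (median 0.04). Elovl5 had the lowest adjusted p of every gene named here: it held 236, 331, 338 and 280.1 CPM in S40 to S43 and 1037, 850.1, 1080.2 and 1086 CPM in S44 to S47 (log2 fold change 1.77, SE 0.13, edgeR adjusted p = 1.9e-06). Elovl2, which extends longer polyunsaturated acids, held 199, 289.6, 242 and 197 CPM in S40 to S43 and 931, 509, 1115 and 572 CPM in S44 to S47 (log2 fold change 1.75, SE 0.22, edgeR adjusted p = 2.4e-04), and Fads3 rose by 1.16 (edgeR adjusted p = 0.00453). Fads2, the first desaturase of the same route, stood at 0.58 and did not pass (edgeR adjusted p = 0.0598), though it did without S45, S47 or S52.

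In glycolysis and fructose use, 1 of 21 genes was called higher and 6 lower (median −0.20). Khk, the first enzyme of fructose breakdown, held 530.1, 574, 619 and 712 CPM in S40 to S43 and 231, 385, 216 and 329.9 CPM in S44 to S47 (log2 fold change −1.07, SE 0.21, edgeR adjusted p = 0.00416), with S44 and S46 lowest. Ldha, lactate dehydrogenase, rose from 1246, 1258, 1327 and 1268 to 2561, 2015, 2279 and 1942 CPM (log2 fold change 0.79, SE 0.10, edgeR adjusted p = 3.1e-04). Of 14 glycogen genes, 2 were called higher and 4 lower (median −0.21). Ppp1r3b, the liver subunit that directs a phosphatase to glycogen and favours its synthesis, held 60.1, 216, 170.4 and 115 CPM in S40 to S43 and 20.8, 50.5, 27.4 and 38.04 CPM in S44 to S47 (log2 fold change −2.04, SE 0.36, edgeR adjusted p = 0.00190), and the phosphorylase Pygl fell by 0.82 (edgeR adjusted p = 0.00410). The rises were Gys2, liver glycogen synthase (1.02), and Ppp1r3g, a fasting-induced subunit of the same phosphatase (3.33, edgeR adjusted p = 0.0326 and 0.0308), both with overlapping groups. Neither was called by limma-voom, in the 8 fasted libraries alone or without S40, S42, S43, S44 or S46 (Gys2 also without S41). Of 19 genes of gluconeogenesis and glycerol use 2 were called higher and 2 lower (median 0.01). Pck1, the gatekeeping enzyme of the pathway, stood at 0.78 without a call (edgeR adjusted p = 0.0836; called without S42 or S45), Gk was the largest called rise, and Gpt2, a mitochondrial alanine transaminase, rose by 0.62 (edgeR adjusted p = 0.00238). Pdk4, the kinase that shuts pyruvate dehydrogenase when fat is burned, held 3.77, 4.96, 2.97 and 8.22 CPM in S40 to S43 and 34.1, 6.28, 13.5 and 49.97 CPM in S44 to S47 (log2 fold change 2.38, SE 0.49, edgeR adjusted p = 0.00521). S45 lay within the control range, below S43, while S47 and S44 were highest. It was the single rise among 13 genes of that switch, where Pdk2 fell by 0.53 (median −0.02), a call lost without S40, S43 or S44.

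**Figure D2:**
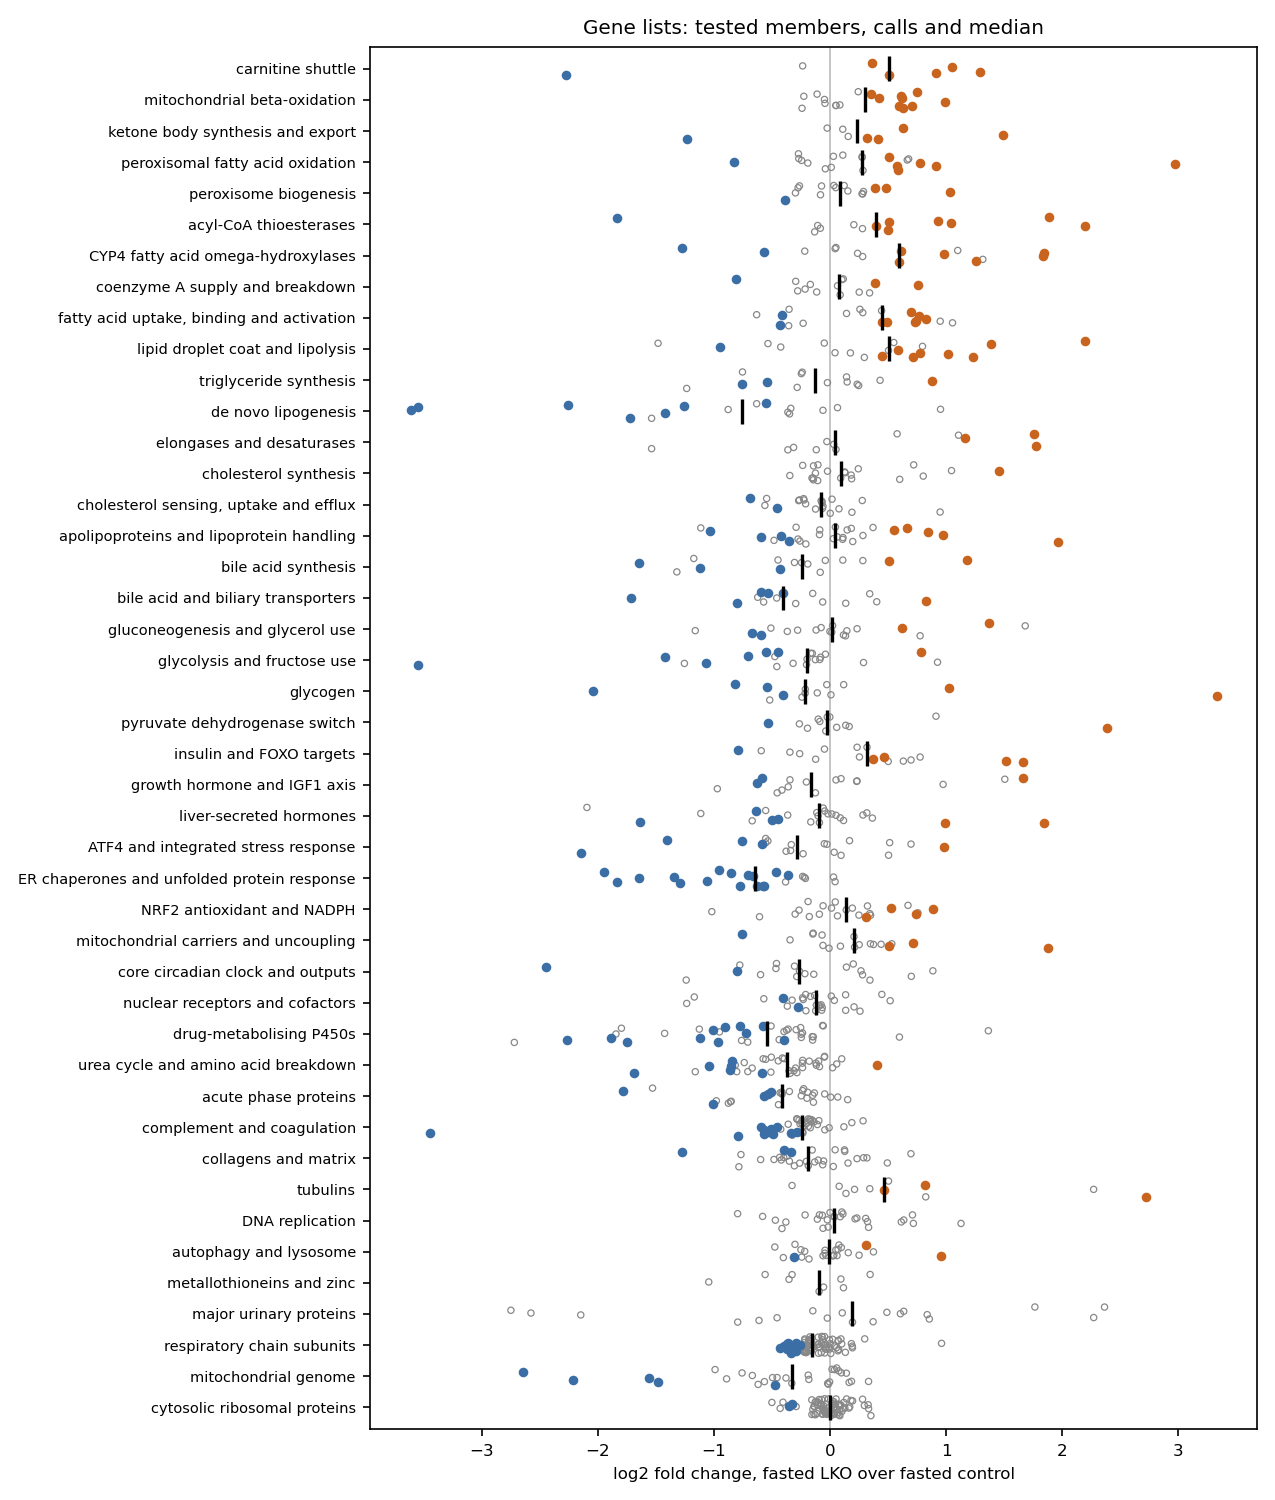
Log2 fold change of fasted LKO over fasted control for each tested member of 44 gene lists, 1 row per list. Filled orange and blue points are genes called higher and lower, open grey points genes not called, and black bars list medians. Blue points fill most of the row of ER chaperones, where 16 of 22 genes were called lower, while orange points prevail in the rows of the carnitine shuttle, mitochondrial beta-oxidation and lipid droplets.

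Among lists with more than 10 tested genes, ER protein folding had the highest share of members called in 1 direction. As the lists were chosen with earlier results of these data known, this rank is a description and not a test. Chaperones, disulfide isomerases and degradation factors of the ER are induced together by the unfolded protein response, through ATF6, IRE1 with XBP1, and PERK. Of 22 genes, 16 were called lower and none higher (median −0.64, with 6.48% called lower over all genes), and the count stayed between 12 and 16 when any 1 library was left out. Hspa5 (chr2:34661982-34667559), the chaperone BiP, held 508, 706, 837 and 571 CPM in S40 to S43 and 244, 301, 266 and 541 CPM in S44 to S47 (log2 fold change −0.96, SE 0.22, edgeR adjusted p = 0.00980). S47 lay within the control range, and the other 3 LKO libraries lay below it. Hyou1, a BiP partner of the HSP110 family, held 139, 184, 224 and 139 CPM in S40 to S43 and 55.96, 66.1, 54.98 and 103 CPM in S44 to S47 (log2 fold change −1.30, SE 0.20, edgeR adjusted p = 8.9e-04). Manf, a secreted ER stress protein, held 107, 124, 158 and 116 CPM in S40 to S43 and 29.3, 35.9, 28.6 and 68.1 CPM in S44 to S47 (log2 fold change −1.64, SE 0.23, edgeR adjusted p = 4.2e-04). Sdf2l1, a co-chaperone, held 26.4, 37.1, 45.9 and 29.8 CPM in S40 to S43 and 8.14, 11.7, 6.67 and 12.6 CPM in S44 to S47 (log2 fold change −1.83, SE 0.24, edgeR adjusted p = 3.0e-04). These 3 genes did not overlap between groups, and S47 was again the LKO library nearest to the controls.

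Creld2, a disulfide isomerase, fell by 1.35, the isomerases Pdia6 and Pdia3 by 0.85 and 0.57, the calcium-binding chaperone Calr by 0.70 and the co-chaperone Dnajb11 by 0.63 (edgeR adjusted p = 0.00316, 0.00232, 0.00422, 0.00232 and 9.3e-04). Of the genes of ER-associated degradation, Herpud1 fell by 1.06, the ubiquitin ligase Syvn1 by 0.78 and Edem1 by 0.66 (edgeR adjusted p = 0.00843, 0.0108 and 0.00254). The 2 sensors on the list, Ern1, which encodes IRE1, and Atf6, were not called. Xbp1, the factor that IRE1 activates by splicing, fell by 0.36 (edgeR adjusted p = 0.0462), close to the threshold. It was not called when any 1 of 13 libraries was left out, with upper quartile scaling or without a filter on low counts. Gene counts do not tell its spliced from its unspliced form. The summed level of the 22 genes was 3941, 5058, 5517 and 4031 CPM in S40 to S43 and 2445, 2944, 2651 and 3249 CPM in S44 to S47, so the groups did not overlap for the sum.

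ATF6 and XBP1 act on a paired motif, the ER stress response element, and the promoters were read for it after the values had been seen. Of the 22 ER genes 19 had a promoter window. The motif was taken as CCAAT and CCACG with 9 bases between, on either strand, in the 250 bases before a gene's start in RefSeq annotation of GRCm38.p6, another build than that of the counts. It occurred in 7 of the 14 ER genes called lower that have a window (50%) and in 2 of 5 not called (40%), against 19 of 10550 tested genes with a window (0.18%). The ER list is made of genes of this response, and 5 windows of genes not called are too few to compare these shares. Over all genes with a window, the motif occurred in 9 of 725 called lower (1.24%), the 7 ER genes among them. It occurred in 0 of 623 called higher. Whether the motif bears on the fall was not tested. The windows of 4 of the genes called lower are shown because they carry the shared feature, 5′ to 3′ on the gene's strand, with the match in capitals:
Hspa5 chr2:34771840-34772089, plus strand: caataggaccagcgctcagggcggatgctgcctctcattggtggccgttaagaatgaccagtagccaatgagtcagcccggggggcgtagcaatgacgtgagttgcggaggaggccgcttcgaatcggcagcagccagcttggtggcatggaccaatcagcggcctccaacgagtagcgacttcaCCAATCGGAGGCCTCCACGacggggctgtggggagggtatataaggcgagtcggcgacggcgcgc
Creld2 chr15:88819396-88819645, plus strand: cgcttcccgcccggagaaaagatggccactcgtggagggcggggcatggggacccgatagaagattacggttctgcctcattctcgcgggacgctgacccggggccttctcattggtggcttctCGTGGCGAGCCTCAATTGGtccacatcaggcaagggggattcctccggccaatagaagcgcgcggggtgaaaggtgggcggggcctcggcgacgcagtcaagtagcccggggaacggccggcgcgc
Pdia6 chr12:17266339-17266588, plus strand: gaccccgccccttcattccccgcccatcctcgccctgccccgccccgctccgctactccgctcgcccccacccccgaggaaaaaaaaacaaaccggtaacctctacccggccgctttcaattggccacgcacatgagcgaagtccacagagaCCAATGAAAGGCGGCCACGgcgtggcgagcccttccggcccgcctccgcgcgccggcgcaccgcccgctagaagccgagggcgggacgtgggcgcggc
Derl3 chr10:75893148-75893397, plus strand: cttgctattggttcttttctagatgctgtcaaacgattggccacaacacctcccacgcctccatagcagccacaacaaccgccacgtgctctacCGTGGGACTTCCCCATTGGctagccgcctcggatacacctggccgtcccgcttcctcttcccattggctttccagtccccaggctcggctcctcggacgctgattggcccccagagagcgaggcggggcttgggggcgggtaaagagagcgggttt
The other holders called lower were Syvn1, Calr and Hsp90b1, and those not called were Canx and Dnajc3. Derl3, a degradation factor, fell by 1.95 (edgeR adjusted p = 0.0350) from 5.66, 6.19, 9.42 and 7.72 CPM, and lost its call by limma-voom and when any 1 of 7 libraries was left out. Hsp90b1, the chaperone GRP94, fell by 0.47 (edgeR adjusted p = 0.0318) and lost its call without S41, S42, S44, S45 or S46. A match describes these letters and does not show binding.

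Windows of other lists were read for 3 further motifs, on both strands. A direct repeat of AGGNCA with 1 base between, the class of site PPARA uses, was found in none of the 34 windows of the genes called higher in the carnitine, beta-oxidation, ketone body, peroxisomal oxidation, thioesterase, CYP4 and droplet lists, against 0.37% of tested genes. TCACNCCAC, a sterol response element, occurred in 1 of 6 lipogenesis genes called lower, Mlxipl, against 1.31% of tested genes. It was also found in 1 of the 34 windows above, that of Ehhadh, and in 1 of 14 ER genes called lower, Hsp90b1. The E-box CACGTG occurred in 1 of the 6 lipogenesis genes, 3 of the 34 and 2 of the 14, against 9.79% of tested genes.

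**Figure D3:**
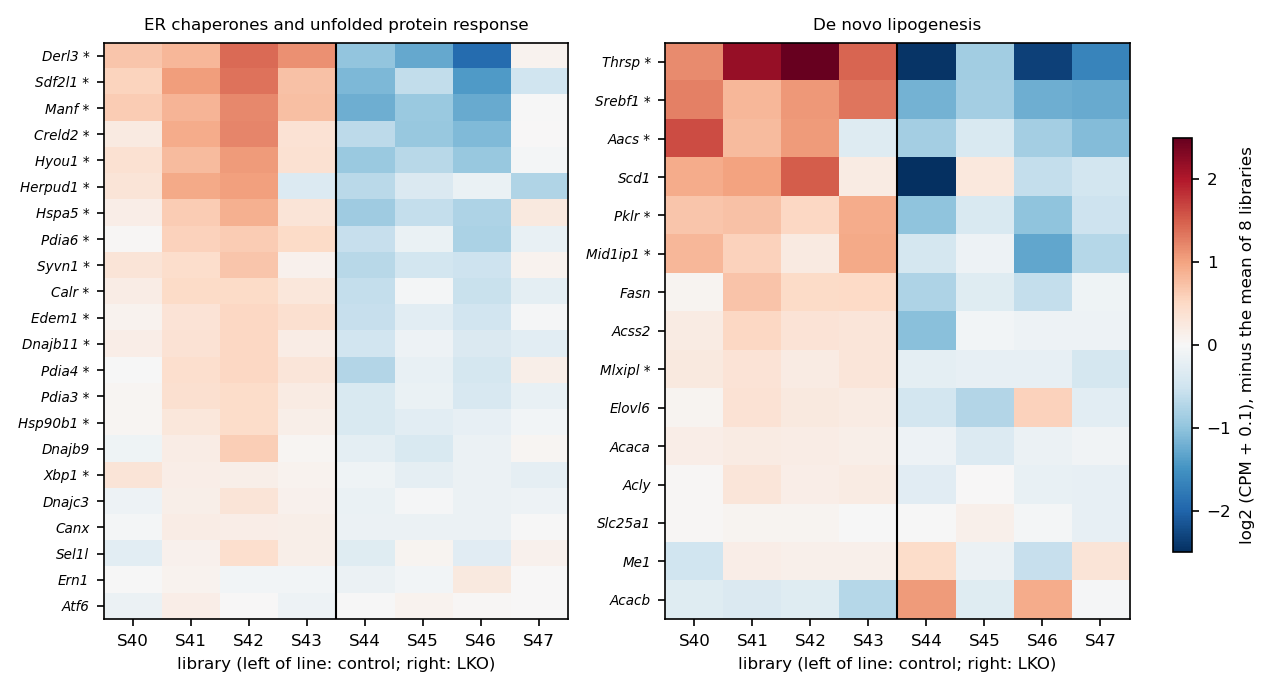
Heat maps of log2 (CPM + 0.1) in each fasted library minus the mean of the 8 libraries, for 22 ER genes (left) and 15 of the 16 lipogenesis genes (right), sorted by fold change, with called genes starred. Columns left of the line are controls S40 to S43. Most ER genes are lowest in S44 or S46 and paler in S47, and in the lipogenesis panel the deepest contrast is in Thrsp, while Acacb is higher in S44 and S46.

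Messages for secreted liver proteins were lower in several lists, and so were markers of the hepatocyte itself: 9 of 10 were lower and 3 were called lower (median −0.41; 1 or none called without S40, S44, S46 or S47), with a summed level of 73171 to 80016 CPM in controls and 60215 to 68353 CPM in LKO. In bulk tissue, fewer cells of a type and less RNA per cell cannot be told apart, and the part of either in these lists, and in those of P450s and amino acid enzymes below, was not tested. Albumin, Alb, stood at −0.29 and was not called (edgeR adjusted p = 0.135). Of 40 complement and coagulation genes, 37 were lower, 11 were called lower and none higher (median −0.24; 4 called without S40 or S44, and 5 or 6 without S42, S43 or S46). F7, coagulation factor VII, held 157, 122, 126 and 124 CPM in S40 to S43 and 57.4, 97.2, 78.1 and 72.04 CPM in S44 to S47 (log2 fold change −0.80, SE 0.14, edgeR adjusted p = 0.00156). Plg, plasminogen, was even within groups at 1713, 1761, 1772 and 1725 CPM in S40 to S43 and 1136, 1400.3, 1197 and 1346 CPM in S44 to S47 (log2 fold change −0.46, SE 0.08, edgeR adjusted p = 0.00215), and Serpind1, heparin cofactor II, fell by 0.60 (edgeR adjusted p = 0.00579). Of 27 acute phase genes, 5 were called lower and none higher (median −0.41; 2 called without S42 or S44, 3 without S40 or S46). Saa4, the constitutive serum amyloid A, held 356, 507, 589 and 371 CPM in S40 to S43 and 65.3, 214, 78.6 and 172 CPM in S44 to S47 (log2 fold change −1.78, SE 0.30, edgeR adjusted p = 0.00137).

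Of 27 genes of apolipoproteins and lipoprotein handling, 5 were called higher and 4 lower (median 0.05). Without any 1 of 8 libraries (S41, S42, S44, S46, S49, S50, S52 or S54) 3 were called higher, and without S40, S43, S44 or S46 2 were called lower. Beside Apoa4, Mttp, which loads lipid onto apolipoprotein B, held 152, 199, 200.2 and 173 CPM in S40 to S43 and 377, 277, 379 and 267 CPM in S44 to S47 (log2 fold change 0.84, SE 0.12, edgeR adjusted p = 4.9e-04), and Apoc2, the cofactor of lipoprotein lipase, rose by 0.97 (edgeR adjusted p = 0.00191). Lipc, hepatic lipase, held 122, 151, 137 and 143 CPM in S40 to S43 and 72.5, 92.3, 95.2 and 107 CPM in S44 to S47 (log2 fold change −0.59, SE 0.11, edgeR adjusted p = 0.00362). Among 25 secreted hormones and related factors, 2 were called higher and 4 lower (2 lower without S44; median −0.09). Agt, angiotensinogen, and Ahsg, fetuin-A, fell by 0.64 and 0.50 (edgeR adjusted p = 0.00857 and 0.00908). Inhbe, the chain of activin E, held 252, 225, 149.5 and 237 CPM in S40 to S43 and 481, 452, 388 and 398 CPM in S44 to S47 (log2 fold change 0.99, SE 0.22, edgeR adjusted p = 0.00735). Fgf21, a fasting hormone and PPARA target, held 39.1, 21.1, 5.18 and 9.88 CPM in S40 to S43 and 102, 52.1, 67.4 and 49.8 CPM in S44 to S47 (log2 fold change 1.84, SE 0.57, edgeR adjusted p = 0.0453). It was not called in the 8 fasted libraries alone, or without S41, S42, S43, S44, S46, S51, S54 or S55.

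The series is titled for plasma cholesterol, and cholesterol genes were examined as a group. Of 21 genes of cholesterol synthesis, 1 was called higher and none lower (median 0.09, −0.15 without S45). This share lies near that over all genes. The call was Hsd17b7, a sterol reductase also active on steroids, which held 13.5, 24.4, 20.5 and 16.4 CPM in S40 to S43 and 56.5, 39.7, 65.4 and 42.8 CPM in S44 to S47 (log2 fold change 1.45, SE 0.27, edgeR adjusted p = 0.00278). Of 21 genes of cholesterol sensing, uptake and efflux, 2 were called lower and none higher (median −0.08): Lrp1, a receptor for lipoprotein remnants, held 1034, 935, 1053 and 933 CPM in S40 to S43 and 506, 716, 588 and 647 CPM in S44 to S47 (log2 fold change −0.69, SE 0.10, edgeR adjusted p = 4.7e-04), and Scarb1, the HDL receptor, fell by 0.46 (edgeR adjusted p = 0.00652). Abcg5, one chain of the biliary sterol exporter, stood at −0.56 without a call (edgeR adjusted p = 0.132), though it was called in the 8 fasted libraries alone and without S49.

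Of 15 genes of bile acid synthesis, 2 were called higher and 3 lower (5 lower without S45; median −0.25, −0.10 without S44). Akr1c6, a hydroxysteroid dehydrogenase, held 916, 1128, 982 and 1024 CPM in S40 to S43 and 364, 634, 350.2 and 517 CPM in S44 to S47 (log2 fold change −1.12, SE 0.15, edgeR adjusted p = 3.6e-04), and Cyp2c70, which makes muricholic acids in mice, fell by 1.65 (edgeR adjusted p = 0.00416). Cyp8b1, the 12-alpha-hydroxylase that directs synthesis to cholic acid, held 621, 514, 548 and 582 CPM in S40 to S43 and 1159, 974, 1740.1 and 1245 CPM in S44 to S47 (log2 fold change 1.18, SE 0.29, edgeR adjusted p = 0.0145), without overlap, and lost its call without S46. Of 15 bile acid and biliary transporters, 1 was called higher and 5 lower (2 lower without S41, S42 or S44; median −0.41). The rise was Abcb4, which moves phosphatidylcholine into bile, from 266, 336, 299 and 278 to 584, 418, 604 and 478 CPM (log2 fold change 0.82, SE 0.12, edgeR adjusted p = 7.5e-04). Slc10a2, the apical bile acid transporter ASBT, found in bile ducts in the liver, held 8.94, 11.7, 9.67 and 7.29 CPM in S40 to S43 and 2.40, 3.17, 1.68 and 4.29 CPM in S44 to S47 (log2 fold change −1.71, SE 0.28, edgeR adjusted p = 0.00112), without overlap. Abcc6, an ABC transporter through which hepatocytes release ATP, fell by 0.54 (edgeR adjusted p = 0.00131). No marker of bile duct cells was called among 6 tested (median 0.69, but 0.07 without S44, the library with the highest sum; summed 40.9 to 69.00 CPM in controls and 42.1 to 107 CPM in LKO).

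Of 36 drug-metabolising P450 genes, 34 were lower, 11 were called lower and none higher (median −0.54; 7 called without S44). Beside Cyp2a5, Cyp2c29 held 579, 752, 943 and 709 CPM in S40 to S43 and 162, 355, 157 and 215 CPM in S44 to S47 (log2 fold change −1.75, SE 0.34, edgeR adjusted p = 0.00365), and Cyp2c50 fell by 1.12 (edgeR adjusted p = 0.00265), 2 genes of a cluster of close copies whose counts are uncertain. Cyp1a2, which oxidises caffeine and aromatic amines, held 353, 393, 313 and 292 CPM in S40 to S43 and 195, 155, 155 and 166 CPM in S44 to S47 (log2 fold change −1.01, SE 0.14, edgeR adjusted p = 3.9e-04). Cyp3a13, Cyp2d22 and Cyp2d40 fell by 0.72, 0.58 and 0.90 (edgeR adjusted p = 0.00329, 0.00993 and 0.0115). No control overlapped an LKO library for these 6 genes. Cyp2b10, the standard readout of the receptor CAR, stood at −1.80 and was not called (edgeR adjusted p = 0.390).

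Of 38 genes of the urea cycle and amino acid breakdown, 34 were lower, 6 were called lower and 1 higher (median −0.37; 13 called lower without S49). Prodh, which opens proline breakdown, held 372, 322, 403 and 323 CPM in S40 to S43 and 59.2, 185, 68.4 and 128 CPM in S44 to S47 (log2 fold change −1.69, SE 0.29, edgeR adjusted p = 0.00152), lowest in S44 and S46. Haao, of the route from tryptophan to NAD, fell by 0.86, the glutaminase Gls2 by 0.85 and the glutamine synthetase Glul by 0.84 (edgeR adjusted p = 8.1e-04, 0.00841 and 0.00453). The urea cycle enzymes Cps1 (−0.67) and Ass1 (−0.71) did not pass (edgeR adjusted p = 0.118 and 0.117), Ass1 passing in the 8 fasted libraries alone and without S49.

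No subunit of the respiratory chain, which takes up the electrons of beta-oxidation, was called higher. Of 81 nuclear-encoded subunits, 64 were lower, 13 were called lower and none higher (median −0.16). This count fell to 3 without S40, 5 without S44, 6 without S43, 7 without S42 or S46 and 8 without S47. Differences were small: Cox5a, of cytochrome oxidase, held 112, 95.1, 100.5 and 108 CPM in S40 to S43 and 78.5, 76.5, 80.2 and 79.6 CPM in S44 to S47 (log2 fold change −0.40, SE 0.08, edgeR adjusted p = 0.00367), and Uqcrq, of complex III, fell by 0.37 (edgeR adjusted p = 0.00997). Of 29 mitochondrially encoded genes 5 were called lower (median −0.33, −0.01 over those with a mean of at least 5 CPM), of which mt-Nd4l held 10.97, 64.1, 30.6 and 51.3 CPM in S40 to S43 and 3.69, 9.79, 10.3 and 10.1 CPM in S44 to S47 and the ribosomal RNA mt-Rnr1 441, 558, 559 and 506 CPM in S40 to S43 and 398, 346, 367 and 370.4 CPM in S44 to S47 (log2 fold change −0.48, SE 0.11, edgeR adjusted p = 0.00840). The libraries were selected with poly-T beads, for which ribosomal RNA is not the intended target. Of 79 cytosolic ribosomal protein genes 2 were called lower (median 0.00). Of 18 mitochondrial carriers 3 were called higher and 1 lower (median 0.21), the fall being Slc25a45 (−0.76, edgeR adjusted p = 0.00121).

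Lists of stress responses and hormone signalling held at most 4 calls in 1 direction, and calls in both directions except for NRF2 targets. A single call in a list of this size lies near the share over all genes (5.75% higher, 6.48% lower), while 4 calls in 1 direction are a larger share. Of 20 genes of the ATF4 response, 1 was called higher and 4 lower (median −0.28; 0.02 without S40 and −0.04 by limma-voom or with a mean of at least 5 CPM). The rise was Atf5, a factor tied to mitochondrial stress, from 724, 476, 369 and 487 to 1240.2, 915, 1006 and 904 CPM (log2 fold change 0.98, SE 0.20, edgeR adjusted p = 0.00410). Falls included Shmt2, of mitochondrial folate metabolism (−0.58), and Vldlr (−1.41, edgeR adjusted p = 0.00365 and 0.00967). Of 23 NRF2 target and NADPH genes, 4 were called higher and none lower (2 without S40, S42 or S47; median 0.14), among them Gsr, glutathione reductase (0.74), and Srxn1, sulfiredoxin (0.89, edgeR adjusted p = 2.4e-04 and 0.00678). Of 17 insulin and FOXO targets 4 were called higher and 1 lower (1 higher without S40, S43, S44 or S46, 2 without S41; median 0.32). Irs2, an insulin receptor adaptor that FOXO1 induces in fasting, held 8.74, 4.73, 8.53 and 11.9 CPM in S40 to S43 and 25.01, 11.9, 38.9 and 21.01 CPM in S44 to S47 (log2 fold change 1.51, SE 0.36, edgeR adjusted p = 0.0114), with S45 level with control S43. In the growth hormone axis 1 of 16 genes was called higher and 2 lower (4 lower without S47; median −0.16, but 0.20 without S40 and 0.01 without S41 or S43): the receptor Ghr fell by 0.59 and Igfbp4, a binding protein of IGFs, by 0.63 (edgeR adjusted p = 0.00272 and 7.5e-04).

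Of 28 nuclear receptors and cofactors 2 were called lower and none higher (median −0.12). Ppara itself held 36.4, 60.6, 51.8 and 38.9 CPM in S40 to S43 and 59.7, 58.6, 87.3 and 49.8 CPM in S44 to S47, overlapped between groups and was not called (0.45, edgeR adjusted p = 0.161). Nr2f6, an orphan receptor, fell by 0.40 (edgeR adjusted p = 0.00156). Of 19 clock genes 2 were called lower (4 without S43, 5 without S45; median −0.26), one of them Bhlhe40, a repressor that also responds to feeding (−0.81, edgeR adjusted p = 0.00533). Fasted LKO had no call among 28 genes of DNA replication (median 0.04), 9 of metallothioneins and zinc transport (−0.09, −0.29 without S47) or 19 major urinary proteins, a family of near-identical copies (0.19, −0.17 without S43 and −0.26 by limma-voom). Tubulins had 3 of 11 genes called higher (5 without S51; median 0.46), and collagens and matrix genes 3 of 31 lower (1 without S44; median −0.19, 0.04 without S43).

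Immunoglobulin genes were higher in LKO, at low levels. Of 173 genes matched by the prefix of their names (Ighmbp2, which is no antibody gene, among them), 26 passed the filter on low counts, a filter that genes high in any 1 group can pass, so the count of 15 called is no share of the family. The 173 genes together summed to 22.5 and 57.7 CPM at the extremes of the controls and 128 and 449 CPM at those of LKO, with no overlap. Igkc, the kappa constant region, held 10.2, 15.5, 5.18 and 4.32 CPM in S40 to S43 and 38.9, 151, 57.1 and 109.6 CPM in S44 to S47 (log2 fold change 3.33, SE 0.45, edgeR adjusted p = 3.5e-04). Ighg2c, a heavy chain of IgG, held 1.69, 3.27, 1.64 and 0.0618 CPM in S40 to S43 and 21.6, 122, 32.8 and 56.8 CPM in S44 to S47 and rose by 5.11 (edgeR adjusted p = 2.4e-04). Igha, the heavy chain of IgA, held 5.71, 1.40, 1.01 and 1.30 CPM in S40 to S43 and 21.5, 14.5, 9.98 and 37.8 CPM in S44 to S47 and rose by 3.10 (edgeR adjusted p = 0.00281). No LKO library overlapped the controls for these 3 genes, and S45 and S47 were highest for Igkc and Ighg2c. Ighm, of unswitched cells, stood at 0.40 and was not called (edgeR adjusted p = 0.404). Of 10 markers of B and plasma cells, 8 were tested: Jchain and Igkc were called higher, Derl3 and Xbp1, which hepatocytes also express, lower, and the B cell receptor genes Cd79a (0.39) and Cd79b (0.55) were not called. The list summed to 259.5 to 307 CPM in controls and 272 to 383 CPM in LKO. Antibody genes share sequence, so counts of single members are uncertain.

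Markers of other cells were read in the same way. No marker was called for endothelial cells (10 tested), resident macrophages (10), recruited monocytes or macrophages (10), T and NK cells (8), neutrophils (2), muscle (4) or proliferating cells (9). The muscle markers were uneven, at a sum of 50.5, 5.14, 10.1 and 9.33 CPM in S40 to S43 and 86.3, 4.64, 5.997 and 6.53 CPM in S44 to S47. Their median was 0.31, but −1.69 without S44 and 1.41 without S40. Why S40 and S44 stood apart was not tested. Resident macrophage markers summed to 388 to 716 CPM in controls and 451 to 666 CPM in LKO, and endothelial markers to 305 to 364 CPM in controls and 305 to 347 CPM in LKO. Erythroid markers were lower in 7 of 7 genes (median −0.75, −0.36 without S40; 394 to 1287 CPM in controls and 310.0 to 537 CPM in LKO), of which Alas2, the erythroid enzyme of heme synthesis, held 165, 145, 152 and 123 CPM in S40 to S43 and 75.2, 87.7, 59.6 and 62.96 CPM in S44 to S47 and was called (log2 fold change −1.04, SE 0.15, edgeR adjusted p = 5.0e-04). Of 8 adipocyte markers Adipoq, Plin1, Lep and Retn were too low to be tested. Of the 4 tested (summed 1453 to 3078 CPM in controls and 2542 to 5611 CPM in LKO), Cfd was called lower and Cidec, which fatty liver also expresses, higher. Cidec averaged 58.9 CPM in controls and 270 CPM in LKO, and Cfd 34.4 and 3.24 CPM. Most of the sum thus came from the 2 not called, Fabp4 and Pck1, the latter the gluconeogenic enzyme of the liver named above. The sum is therefore no measure of adipocytes. Of stellate cell and fibroblast markers 1 of 10 was called higher (Dcn, 0.36, a call lost without any 1 of 9 libraries or without a filter on low counts). The pancreatic marker Cela1 fell by 0.77 while of 9 other pancreatic markers 3 were too low to be tested and 6 were not found in the tables used here.

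**Figure D4:**
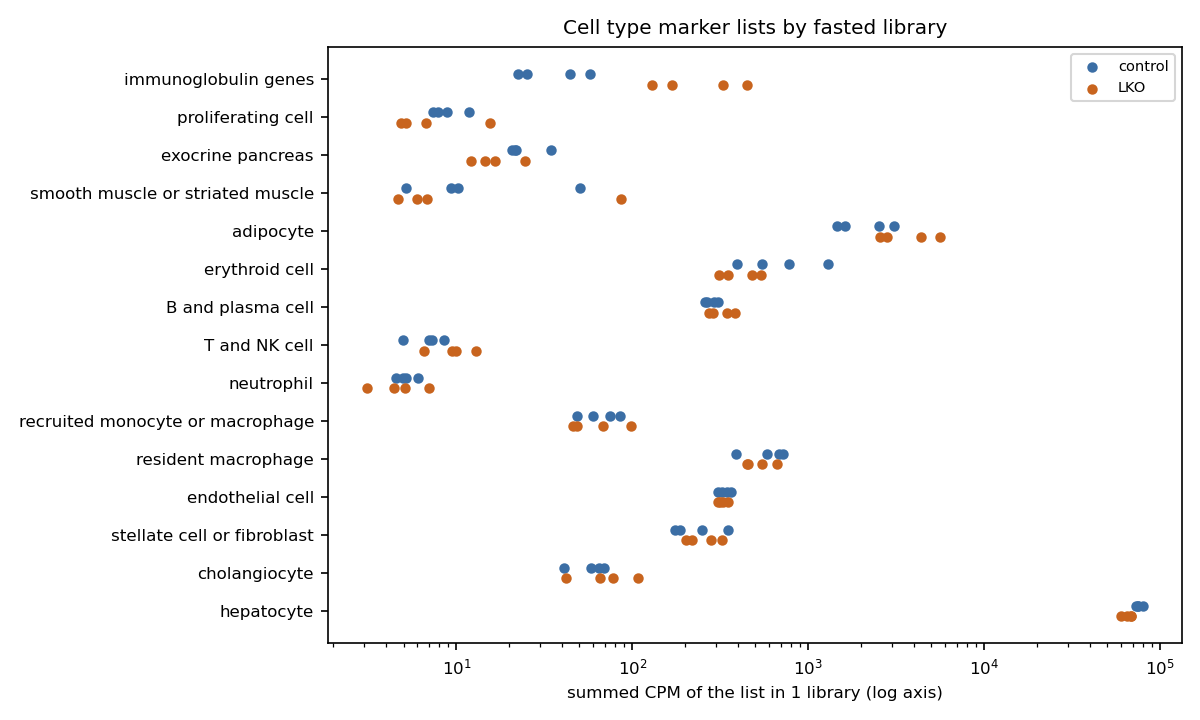
Summed CPM of each marker list, and of the immunoglobulin genes, in each fasted library, on a log axis, with controls in blue and LKO in orange. Immunoglobulin genes and hepatocyte markers are separated between the groups, in opposite directions, and the macrophage and endothelial lists overlap.

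Whether a fasted effect differed from the effect of the same genotype after refeeding was tested for every gene in the same fit, with libraries that the 2 effects do not share. Of 14488 genes 78 (0.538%) were called, 33 with a higher and 45 with a lower fasted effect. This count ranged from 8 without S48 to 282 without S49. None of the 15 largest rises or 15 largest falls passed. Srebf1 (−2.25 beside −0.69, edgeR adjusted p = 0.0647) and Pdk4 (2.38 beside −0.41, 0.0707) were not called, although their refed effects were nearer to 0 or of the other sign.

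Among members of the 59 lists the difference was called for 12 genes, 9 of which were called in the fasted comparison. The refed comparison by itself called 526 of 14488 genes (3.63%). Slc16a1 rose by 1.49 in fasted LKO and stood at −0.19 in refed LKO (difference 1.68, SE 0.25, edgeR adjusted p = 0.0168), a call kept when any 1 library was left out. The carnitine acetyltransferase Crat stood at 1.05 fasted and 0.22 refed (difference 0.83, edgeR adjusted p = 0.0406), and Lipa at 0.96 and 0.01 (difference 0.94, edgeR adjusted p = 0.0261). In these 3 genes no refed effect was called. The call on Lipa was lost without S40, S48, S50 or S55, and that on Crat when any 1 of 10 libraries was left out. Manf, of the ER list, stood at −1.64 fasted and −0.18 refed (difference −1.46, edgeR adjusted p = 0.0489), and Slc10a2 at −1.71 and 0.01 (difference −1.72, edgeR adjusted p = 0.0447). Acot4, in its cluster of close copies, differed too (0.93 and −0.28, edgeR adjusted p = 0.0426). The differences of Manf, Slc10a2 and Acot4 were each lost when any 1 of 12 or more libraries was left out. Acot3, of the same cluster, stood at 1.04 fasted and −1.01 refed, Cyp2u1, a P450 that acts on fatty acids, at −0.77 and 0.64, and the mitochondrial glycine tRNA gene mt-Tg, at under 4 CPM in each fasted library, at −1.56 and 0.53 (edgeR adjusted p of the difference = 0.0334, 0.0426 and 0.0426). In DNA replication the difference was called for 3 of 28 genes (10.7%, beside 0.538% over all genes), each with a called refed rise and no fasted call: Mcm6, of the replicative helicase (−0.02 fasted and 2.62 refed), Gins1, of a complex that joins it (−0.41 and 1.12), and E2f1, a factor that drives S phase genes (−0.80 and 1.42, edgeR adjusted p of the difference = 0.0438, 0.0194 and 0.0327). Gins1 lost this call without S48, and the other 5 of these 6 lost theirs when any 1 of 8 or more libraries was left out. By contrast Elovl5 was called in both states (1.77 and 1.16), with a difference of 0.61 (SE 0.17) that did not pass (edgeR adjusted p = 0.0948), and Lamb3 stood at 2.11 and 1.99 (edgeR adjusted p = 0.865).

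**Figure D5:**
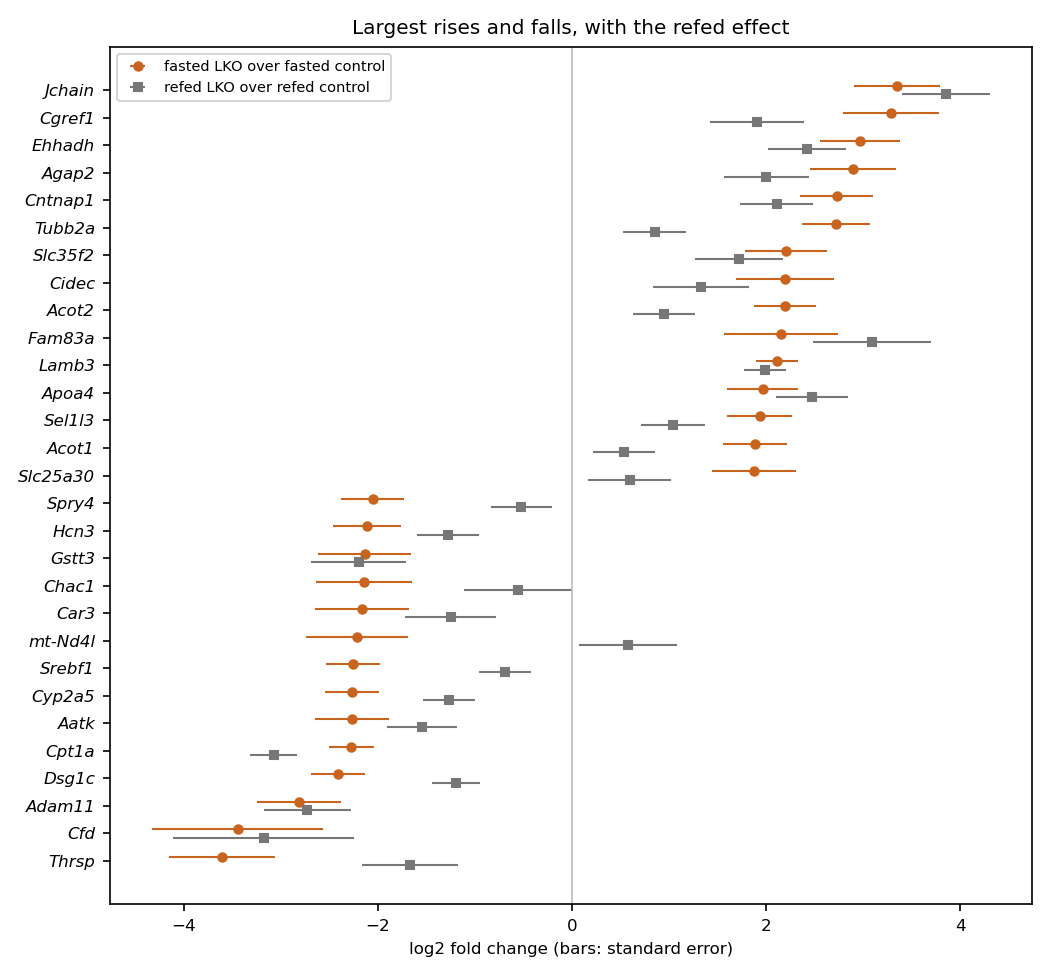
Log2 fold change of LKO over control for the 15 largest rises and 14 of the 15 largest falls in the fasted state (orange circles), with the refed effect of the same genes (grey squares). Bars are standard errors. All but mt-Nd4l have the same sign in both states.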

How the data were processed

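RNA-seq of mouse liver was analysed from tables in which the authors deposited raw counts per gene and library. Alignment used HISAT2 2.0.5 and the genome build was mm39, per the submitters' processing notes. The counting tool, its use of strand and the annotation release are not given in the sources used here. The tables also hold, per the file headers, the authors' log2 fold changes and adjusted p-values, which served only as a check: the authors' deposited table called 1808 genes, of which 1491 were also called here, in the same direction. Of the per-library columns, 64 in other units were left aside. Columns S40 to S55 were assigned to groups by the table and column names, not to single samples.

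Counts of 25803 genes were joined over 4 tables. A gene missing from a table was set to 0 there (3148 genes, none of them tested). Genes were filtered with filterByExpr, scaled by TMM and fitted with edgeR 4.0.16 (R 4.3.3) in a quasi-likelihood model of 4 groups over all 16 libraries, with 12 residual degrees of freedom. P-values were adjusted by Benjamini-Hochberg over 14488 genes, and SE is the fold change divided by the root of F. CPM were computed over the counts of tested genes times the TMM factor. Replicates of a group differed by more than sampling noise in every pair. On simulated counts with known changes the fit recovered 68% of genes changed by a log2 of 1 and 89.7% of those changed by 2, with 9 false calls among 14265 genes. The simulation gave every group the same spread and changed fewer genes than were called here. These rates may therefore not hold for the real libraries. Depth of 15636010 to 20716527 counts per fasted library sets the precision of low genes.

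Named genes were Cpt1a, the 15 largest called non-overlapping protein-coding changes each way with a mean of at least 5 CPM, members of 59 lists, and those whose refed effect differs. The members and lists were chosen with earlier results of these data known. Alternatives were other scaling, filters, thresholds, DESeq2 1.42.0, limma-voom (limma 3.58.1), the 8 fasted libraries alone and each library left out. Results of a few list members and of 1 of the largest falls are not reported here. Promoter windows are from RefSeq annotation of GRCm38.p6.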

Additional observations from a re-analysis of the deposited data

Results flagged for a closer look

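In each group of 4 libraries the values of the 191 named genes were searched for 1 library far from the other 3 (Dixon's test, critical value 0.829). Chance alone flags about 1 in 20 groups, and 17 of 382 groups were found, 11 among controls and 6 in LKO. S40 was the distant library in 5 of them. Among controls, 1 library was far above the other 3 for Fam83a at 7.15 CPM in S40 (others 0.803 to 1.39), Bdh1 at 499 CPM in S41 (others 398 to 409.8), F7 at 157 CPM in S40 (others 122 to 126) and Ahsg at 7939 CPM in S40 (others 6664 to 6768). The same held for Vldlr at 6.73 CPM in S43 (others 3.74 to 3.82), Igha at 5.71 CPM in S40 (others 1.01 to 1.40), Cela1 at 34.3 CPM in S41 (others 20.6 to 21.5) and Adh1 at 2066 CPM in S41 (others 1787 to 1829). The same held for Lars2 at 91.3 CPM in S42 (others 62.04 to 64.3). One control was far below the rest for Acacb at 20.9 CPM in S43 (others 26.7 to 27.8) and Glul at 981 CPM in S40 (others 1402 to 1472). Among LKO libraries, 1 was far above the other 3 for Srebf1 at 45.9 CPM in S45 (others 34.6 to 36.4), Aatk at 17.7 CPM in S45 (others 4.72 to 5.997), Pex11a at 529 CPM in S44 (others 441 to 455) and Cd79b at 2.61 CPM in S47 (others 1.24 to 1.40). An LKO library was far below the rest for mt-Nd4l at 3.69 CPM in S44 (others 9.79 to 10.3) and Spcs2 at 44.2 CPM in S46 (others 49.3 to 50.3).

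The effect of the knockout differed between the fasted and the refed state, by a test of the difference itself, for 13 named genes. On the log2 scale the fasted effect minus the refed effect was 1.68 for Slc16a1, 1.71 for Lars2, 1.21 for Acot4, 0.94 for Lipa, 0.83 for Crat, −1.46 for Manf and −1.72 for Slc10a2. It was 2.05 for Acot3, −1.41 for Cyp2u1, −2.09 for mt-Tg, −2.64 for Mcm6, −1.54 for Gins1 and −2.21 for E2f1. At an adjusted p under 0.05 the calls on Slc16a1 and Lars2 held in all 22 alternative settings. That on Gins1 was lost in 1, and the other 10 were lost in 4 to 14. At an adjusted p under 0.01 no difference was called.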

How the results depend on the processing

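Cpt1a kept its direction and its call under every alternative, with log2 fold changes of −2.40 to −2.21 over the fits without 1 library. The number of genes called, 1772, stayed within 1.5 times of its value under DESeq2's scaling factors (1776), upper quartile factors (1855), no filter on low counts (1476), a mean of at least 5 CPM (1816), DESeq2 (2140), limma-voom (1810) and the 8 fasted libraries alone (1249). It was 663 at an adjusted p under 0.01 and 404 with at least a 2-fold change required. Leave-one-out fits gave 1048 (without S44) to 1985 (without S45). The count for the difference between the fasted and refed effects, 78, depended more on the setting: 197 with a mean of at least 5 CPM, 467 by DESeq2, 35 with at least a 2-fold change, 0 at an edgeR adjusted p under 0.01 (with 2397 genes at an unadjusted p under 0.05) and, over leave-one-out fits, 8 to 282. The fate of single named genes was followed at an adjusted p under 0.05 only, leaving the stricter thresholds aside. Of 166 named genes called, 147 stayed called in all such settings that could test them and 19 were lost in at least 1. Of the 191 named genes 1 changed sign: Mcm6, near 0 and not called, ranged from −0.25 to 0.19 without 1 library and was above 0 without S40, S43, S45 or S47. Counts of 21 of the 59 lists moved by over 1.5 times without 1 library, and medians of 18 changed sign in at least 1 setting, 9 of them within 0.1 of 0 as reported. The causes were not tested. With 4 libraries a group, 68% of genes simulated with a log2 change of 1 were called, so smaller changes may be missed. That simulation gave control and LKO the same spread, so the share missed in the real comparison is not known. No paired analysis was possible because the count columns carry no replicate numbers that tie them to the numbers in the labels.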

Other observations

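Genes outside the lists were looked at after their values had been seen. The lncRNA Gm15441 held 11.5, 10.2, 9.10 and 7.10 CPM in S40 to S43 and 502, 128, 390.5 and 178 CPM in S44 to S47 (log2 fold change 4.98, SE 0.67, edgeR adjusted p = 3.5e-04). It lies on the minus strand at chr3:96463071-96474117 and overlaps all 3927 bases of Txnip (chr3:96465273-96469199), a gene of the plus strand that restrains glucose uptake. Txnip stood at 0.93 and was not called (edgeR adjusted p = 0.0770), except in the 8 fasted libraries alone and without S45 or S49. Whether counting used strand is not given in the sources used here, so reads of the 2 genes may not have been told apart. S44 and S46 were its highest libraries.

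A few genes of protein entry and folding in the ER that no list holds were picked here after their values were seen. Ppib, an ER prolyl isomerase, held 71.99, 70.1, 69.6 and 72.1 CPM in S40 to S43 and 36.3, 45.1, 38.1 and 45.9 CPM in S44 to S47 (log2 fold change −0.78, SE 0.09, edgeR adjusted p = 2.4e-04), Sec61b, of the channel that admits proteins to the ER, fell by 0.75 and Spcs2, of the signal peptidase, by 0.66 (edgeR adjusted p = 2.4e-04 and 2.8e-04). The groups did not overlap for these 3 genes. Among enzymes of aldehydes and retinol, Aldh3a2, which oxidises fatty aldehydes, rose by 1.30, Retsat, which saturates retinol, rose by 1.04 and Adh1 fell by 1.23, from 1787, 2066, 1829 and 1823 CPM to 536, 988, 771 and 903 CPM (edgeR adjusted p = 3.3e-04, 0.00150 and 3.1e-04). Lars2, the mitochondrial leucyl-tRNA synthetase, stood at 1.07 fasted and −0.64 refed (difference 1.71, edgeR adjusted p = 0.0168).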
